A study of Sus scrofa with 61 samples.

Results

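The transcripts described here are those of ARG1, ASL and GPT, 3 enzymes of nitrogen disposal in the liver, out of 6765 gene symbols that could be read from the array. ARG1 (arginase 1) and ASL (argininosuccinate lyase) catalyse the last steps of the urea cycle, and GPT (glutamic-pyruvic transaminase, also called alanine aminotransferase) transfers the amino group of alanine. All probe-sets that the platform annotation assigns to these symbols were taken, and each symbol had 1 probe-set, a group of short probes for one transcript. The 3 genes were chosen from their measured stage changes in these same animals, so their levels are a description and no test is attached to them.

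Amino acids that are broken down in the liver pass their amino groups through aminotransferases to glutamate and aspartate, and the urea cycle joins this nitrogen to bicarbonate and releases it as urea. The cycle starts in the mitochondrion with CPS1 and OTC and ends in the cytosol with ASS1, ASL and ARG1. ASL splits argininosuccinate into arginine and fumarate, ARG1 cleaves arginine into urea and ornithine, and GPT links alanine to pyruvate, a precursor of glucose. These steps are carried out mainly by hepatocytes, the periportal ones above all.

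The livers came from LP offspring, the progeny of German Landrace gilts that received a low protein diet during gestation, and all 61 animals shared this maternal diet. There were 16 fetuses at 94 days post conception (94 dpc), 14 newborns at 1 day post natum (1 dpn), 15 weaners at 28 dpn and 16 young adults at 188 dpn, with 1 animal on each GeneChip Porcine Genome Array. Offspring of sows on an adequate protein diet were not analysed here, so a stage difference is not an effect of the diet. Fetuses were taken by Caesarean section from other sows than those whose offspring were sampled after birth. In period I (94 dpc to 1 dpn) and between 188 dpn and 94 dpc, stage and experiment thus cannot be told apart. The 28 and 188 dpn animals, fostered by other sows and with the males castrated, were weighed after an overnight fast before slaughter. The paper's discussion places the newborns after the start of suckling, and its methods give no fast for them. The part of feeding state in period II (1 dpn to 28 dpn) was not tested. Period III (28 dpn to 188 dpn) compared weaners with pigs reared on solid feed. Animals were picked as sib pairs from one litter, which the labels do not identify, and littermates were treated as independent. The paper also spread the piglets of a litter over the postnatal stages, so animals of different postnatal stages may be littermates. Only at 94 dpc and 1 dpn did the pairs differ in weight by design, a light and a heavy sib. This choice thus differs between the stages of period II and between 188 dpn and 94 dpc, and its part was not tested.

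Signals were compared as log2 of the deposited intensity. Testing was limited to probe-sets brighter than the array median in 50% or more of either stage's animals and with an SD above 0.25 over both stages. A probe-set was called where limma gave P ≤ 0.05 and Storey's q ≤ 0.05. Every array had been scaled to a trimmed mean of about 500.1, yet the array median was lower the later the stage: 152 to 178 in fetuses, 140 to 162 in newborns, 105 to 131 in weaners and 95.1 to 128 in young adults. The median log2 change of all probe-sets tested was accordingly below 0 in every comparison, at -0.16 in period I, -0.14 in period II, -0.14 in period III and -0.43 for 188 dpn against 94 dpc. Subtracting the array medians moved these to 0.02, 0.27, 0.07 and 0.32. The share of higher among all calls was then 50.8%, 67.6%, 59.5% and 61.4%, where it was 38.5%, 41.2%, 33.9% and 34.2% on the deposited scale, and the changes below are relative to the deposited scale. Quantile normalization gave shares of 47.2%, 51.4%, 49.6% and 49.4%. The transcripts of 13 hepatocyte genes, albumin among them, were above the array median in every stage. In whole liver, fewer cells of a type and less RNA per cell cannot be told apart.

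ARG1, the enzyme that forms urea, had the largest pooled SD within stages of the 3 members, although GPT had the larger SD at 94 dpc, and the stages of ARG1 overlapped throughout on the deposited scale. Its log2 signal ran from 12.07 to 13.31 with a median of 12.89 at 94 dpc, from 12.05 to 14.49 with a median of 13.35 at 1 dpn, from 11.85 to 13.86 with a median of 12.89 at 28 dpn, and from 12.97 to 14.73 with a median of 13.80 at 188 dpn. The newborns were the most scattered group, 7 of 14 lying above every fetus and 1 below. The stage mean was 13.26 ± 0.80 at 1 dpn against 12.78 ± 0.37 at 94 dpc (SD), a log2 change of 0.48, and 12.79 ± 0.61 at 28 dpn against 13.26 ± 0.80 at 1 dpn, a change of -0.47. At 188 dpn it was 13.89 ± 0.51 against 12.79 ± 0.61 at 28 dpn, a 2.14-fold difference. The young adults exceeded the highest fetus in 14 of 16 animals. On the deposited scale the weaners had nearly the fetal mean, but this and the size of the dip at 28 dpn depend on the scaling: the changes in periods I and II were 0.62 and -0.12 with array medians subtracted, and 0.35 and -0.69 after quantile normalization. With array medians subtracted, no young adult overlapped a fetus.

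ASL, which supplies the arginine that ARG1 cleaves, was higher at each later stage. Its log2 signal ran from 9.65 to 10.94 (median 10.18) at 94 dpc, from 10.66 to 12.01 (median 11.51) at 1 dpn, from 10.90 to 12.53 (median 11.63) at 28 dpn, and from 11.82 to 12.99 (median 12.58) at 188 dpn. Neighbouring stages overlapped, least so at birth, where 11 of 14 newborns lay above every fetus and 14 of 16 fetuses below every newborn. The change was 1.19 in period I, where the mean was 11.41 ± 0.39 at 1 dpn against 10.21 ± 0.32 at 94 dpc. It was 0.29 in period II, below the SD within either stage (0.63 with array medians subtracted, above both SDs on the deposited scale), and 0.87 in period III, with 12.56 ± 0.34 at 188 dpn against 11.69 ± 0.45 at 28 dpn. Over the whole span the 188 dpn mean was 5.10-fold that of 94 dpc, and no young adult overlapped a fetus.

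GPT was dim before weaning and stood apart only in the young adults. It exceeded the array median in 9 of 16 fetuses and 8 of 14 newborns, and in all 15 weaners and all 16 young adults. Its log2 signal ran from 7.01 to 8.35 (median 7.44) at 94 dpc, from 5.67 to 8.27 (median 7.53) at 1 dpn, from 7.52 to 8.54 (median 8.03) at 28 dpn, and from 8.73 to 10.19 (median 9.40) at 188 dpn. The lowest young adult was thus above the highest animal of each earlier stage, and 5 of 14 newborns were below every fetus. The mean was 7.33 ± 0.77 at 1 dpn against 7.53 ± 0.43 at 94 dpc, a change of -0.20, and 8.03 ± 0.35 at 28 dpn against 7.33 ± 0.77 at 1 dpn, a change of 0.71. At 188 dpn it was 9.39 ± 0.35 against 8.03 ± 0.35 at 28 dpn, a change of 1.36 or 2.56-fold, and 3.63-fold the 94 dpc mean. With quantile normalization or array medians subtracted, the 3 genes kept the sign of each change, and the gap between 28 and 188 dpn for GPT was kept. The changes from 94 to 188 dpn moved most, to 0.66 and 1.76 for ARG1, 2.20 and 3.00 for ASL, and 2.30 and 2.51 for GPT.

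**Figure D1:**
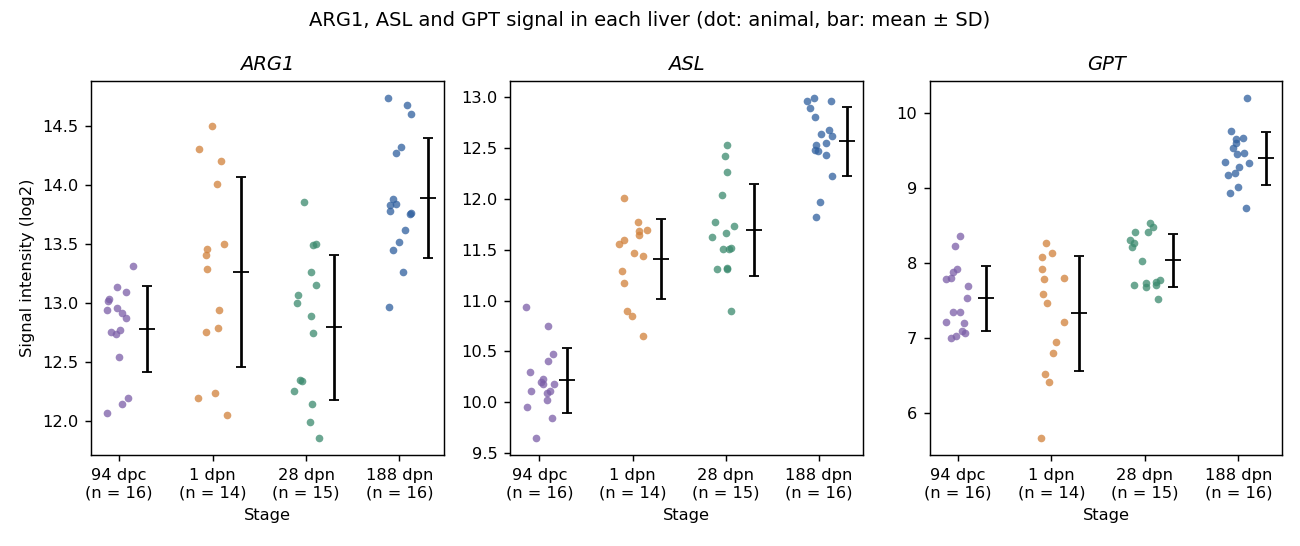
Log2 signal intensity (vertical axis) of ARG1, ASL and GPT at the 4 stages, where each dot is 1 animal and the black bar gives the stage mean ± SD. On this deposited scale the ARG1 stages overlap throughout, the ASL dots climb stage by stage, and the 16 GPT dots at 188 dpn lie above all earlier ones.

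Whether 2 stages overlap can be read against all probe-sets tested in the same comparison. No overlap was seen for 7.72% of them in period I, 9.91% in period II, 1.37% in period III and 26.4% between 188 dpn and 94 dpc. On the deposited scale, of the 3 members none was free of overlap in periods I and II, GPT was in period III, and ASL and GPT were over the whole span. The share of variance lying between stages was 39.9% for ARG1, 84.8% for ASL and 74.1% for GPT, where the median of 13915 bright probe-sets was 53.2%. The SD within stages was 0.59 for ARG1, 0.38 for ASL and 0.50 for GPT, where the median was 0.41.

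The remaining genes of the urea cycle were not used in choosing the members and were tested. This list and those below were, however, written with earlier results of these data known. Of 8 listed genes besides ARG1 and ASL, 4 could be read: CPS1, OTC, ASS1 and ARG2. In period I, 2 of these 4 were called higher and none lower, where 26.1% of all 12227 probe-sets tested were called higher and 41.6% lower. In period II none was higher and 1 was lower (29.0% and 41.4% of 12114), and in period III 3 were higher and none lower (18.3% and 35.7% of 10959). Between 188 dpn and 94 dpc, 3 were higher and none lower (28.6% and 55.0% of 12921). With array medians subtracted, CPS1 and ASS1 were called higher in period II as well.

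ASS1 (argininosuccinate synthase), which makes the substrate of ASL, followed the course of ASL. Its log2 signal ran from 12.57 to 13.69 at 94 dpc, from 14.10 to 15.53 at 1 dpn, from 13.99 to 15.39 at 28 dpn and from 14.86 to 15.81 at 188 dpn, so every newborn lay above every fetus. The change was 1.62 ± 0.14 in period I (SE, limma, q = 3.45e-12), 0.06 ± 0.15 in period II (q = 0.127) and 0.49 ± 0.11 in period III (q = 0.000206). The 188 dpn mean was 4.52-fold that of 94 dpc.

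CPS1 (carbamoyl phosphate synthetase), the mitochondrial entry step, did not pass the test in any of the 3 periods. Its changes were 0.11 ± 0.16 in period I, 0.27 ± 0.16 in period II and -0.01 ± 0.12 in period III (SE, limma, P = 0.513, 0.103 and 0.948). Between 188 dpn and 94 dpc the difference of 0.37 ± 0.12 was called (q = 0.000349) but was 0.00 after quantile normalization, and the stages overlapped, from 13.62 to 14.79 at 188 dpn against 13.44 to 14.64 at 94 dpc. OTC (ornithine transcarbamylase), the next step, changed in period III alone among the periods, by 0.65 ± 0.12 (limma, q = 2.13e-05), with values of -0.19 ± 0.17 in period I and -0.20 ± 0.17 in period II that did not pass. ARG2, the mitochondrial arginase, had a course of the kind seen for ARG1, with a dip at 28 dpn: it changed by 1.55 ± 0.41 in period I, -1.27 ± 0.32 in period II and 1.60 ± 0.27 in period III, each called by limma (q = 0.000277, 0.000144 and 4.17e-06). Another ARG2 probe-set gave 1.53, -1.87 and 1.49, and the last, a dim one, was not tested.

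**Figure D2:**
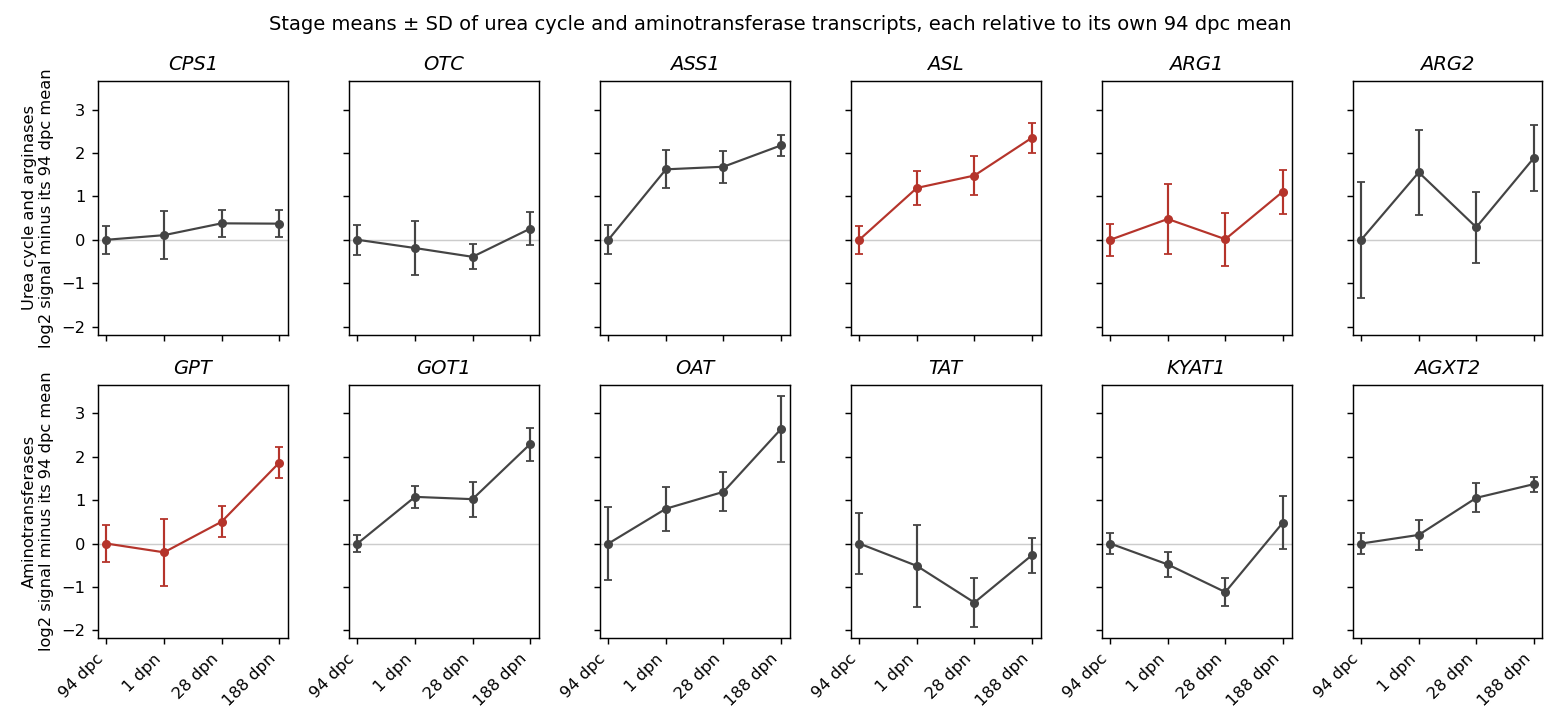
Stage means ± SD of 6 urea cycle and arginase transcripts (upper row) and 6 aminotransferases (lower row), as log2 signal minus the gene's own mean at 94 dpc, with ARG1, ASL and GPT in red. ASS1 and ASL step up at 1 dpn, ARG1 and ARG2 dip at 28 dpn, CPS1 and OTC stay near the fetal mean, and GPT, GOT1, OAT, TAT and KYAT1 each climb between 28 and 188 dpn.

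Of the 19 aminotransferases listed besides GPT, 12 could be read. The counts of this and the following lists stand against the shares of all probe-sets tested, which were 26.1% higher and 41.6% lower in period I, 29.0% and 41.4% in period II, and 18.3% and 35.7% in period III. In period I, 4 of 9 aminotransferases tested were higher and 2 lower. In period II 4 of 11 were higher, near the share of all probe-sets, and 3 lower. In period III, 8 of 11 were higher and 2 lower, with a median change of 0.68. The genes higher in period III were KYAT1, OAT, GOT1, TAT, ETNPPL, ABAT, PSAT1 and AGXT2. BCAT1, which acts on branched-chain amino acids, and GFPT1, which starts hexosamine synthesis, were lower.

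GOT1, the cytosolic aspartate aminotransferase that with GPT moves amino groups between glutamate and the other acids, changed at the same periods as ASS1. Its mean was 11.53 ± 0.26 at 1 dpn against 10.46 ± 0.19 at 94 dpc (SD), without overlap, 11.48 ± 0.40 at 28 dpn against 11.53 ± 0.26 at 1 dpn, and 12.75 ± 0.38 at 188 dpn against 11.48 ± 0.40 at 28 dpn. The changes of 1.08 ± 0.09 and 1.27 ± 0.14 (SE) in periods I and III were called by limma (q = 1.91e-12 and 3.74e-09), and the -0.05 ± 0.13 of period II was not (q = 0.126), and turned to 0.29 with array medians subtracted. GOT2, the mitochondrial partner, varied too little over the animals to be tested, with changes of 0.21, -0.39 and 0.34.

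OAT (ornithine aminotransferase), which takes ornithine out of the cycle, was higher in every period, by 0.80 ± 0.25, 0.39 ± 0.17 and 1.45 ± 0.22, though the change of period II did not pass in a fit of all 4 stages, without the 9 arrays whose 3' to 5' signal differences were outlying, or without the least correlated array of each stage. Its 188 dpn mean was 6.23-fold that of 94 dpc (limma, q = 1.15e-11). AGXT2, a mitochondrial enzyme that uses alanine as amino donor, was 1.81-fold higher at 28 dpn than at 1 dpn and 1.25-fold higher at 188 dpn than at 28 dpn. TAT (tyrosine aminotransferase) and KYAT1 (a kynurenine aminotransferase) had their lowest means at 28 dpn. TAT changed by -0.84 ± 0.27 in period II and 1.09 ± 0.17 in period III, while -0.51 ± 0.28 in period I did not pass (limma, P = 0.0788). The call in period II was lost with array medians subtracted. Another TAT probe-set gave 0.54, -1.17 and 1.22 over the 3 periods, so the sign in period I was not shared. KYAT1 changed by -0.48 ± 0.10, -0.64 ± 0.12 and 1.60 ± 0.17, the first of which did not pass with its probe-sets averaged. ETNPPL, a phospho-lyase of the aminotransferase family that breaks down phosphoethanolamine, ran from 8.41 to 13.27 on the log2 scale at 1 dpn against 2.31 to 5.45 at 94 dpc. All fetal values lay below the array median, and with values below it raised to the array median the change was 2.81. PSAT1, which makes serine, was 2.74-fold lower at 1 dpn than at 94 dpc and then rose by 0.64 and 0.54 in periods II and III.

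The supply of ammonia and aspartate gave a mixed picture. GLUL (glutamine synthetase), the pericentral enzyme that captures ammonia the cycle has left, was 1.98-fold higher at 28 dpn than at 1 dpn and 2.97-fold lower at 188 dpn than at 28 dpn (limma, q = 4.77e-07 and 4.91e-09). Another GLUL probe-set gave -1.46 in period II and -1.77 in period III, so the direction in period II depends on the probe-set. Of the 8 genes of ammonia, glutamate and glutamine handling that could be read, 2 of 6 tested were higher and 1 lower in period I, 2 of 7 higher and 3 lower in period II, and 2 of 7 higher and 1 lower in period III. ALDH4A1 turns the product of OAT and of proline breakdown into glutamate. It was higher in period I by 0.64 and in period III by 0.85, and another of its probe-sets gave 1.05 and 0.45. In period II its change of -0.06 did not pass, while that other probe-set gave -1.41, which was called (limma, q = 2.27e-11). Over the whole span its change of 1.44 was called, while the other probe-set gave 0.09, which did not pass. Its change in period II and over the whole span thus depends on the probe-set.

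Fumarate released by ASL returns to aspartate through FH, MDH1 or MDH2 and the aspartate aminotransferases. Of the aspartate and fumarate list, 6 of 9 genes tested were higher and 2 lower in period I, none of 8 higher and 7 lower in period II (1 higher and 3 lower with array medians subtracted), and 3 of 10 higher and 5 lower in period III. FH (fumarate hydratase) was 1.29-fold higher at 1 dpn than at 94 dpc and 1.18-fold lower at 28 dpn than at 1 dpn, a change that turned to 0.11 with array medians subtracted. MDH1, the cytosolic malate dehydrogenase, rose by 0.46 in period I and fell by 1.04 in period II and by 0.86 in period III. SLC25A12, a mitochondrial aspartate carrier, rose by 0.29, a call lost in a fit of all 4 stages, and then fell by 1.05 and by 1.04. ASNS (asparagine synthetase), which uses aspartate, had a 188 dpn mean of 7.84 ± 0.31 against 13.27 ± 0.31 at 94 dpc, 43.4-fold lower.

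Arginine and ornithine are also used outside the cycle. ALDH18A1 and PYCR1, which lead from glutamate to ornithine and proline, fell in periods II and III. ALDH18A1 was 3.72-fold lower at 28 dpn than at 1 dpn and 5.11-fold lower at 188 dpn than at 28 dpn, without overlap each time, and PYCR1 was 2.32-fold and 2.12-fold lower. SRM, which makes the polyamine spermidine, was 3.10-fold higher at 1 dpn than at 94 dpc and then 2.16-fold and 1.80-fold lower in periods II and III. Other polyamine genes differed in period II: ODC1, which turns ornithine into putrescine, rose by 0.37, and SMS, which makes spermine, rose by 0.57. AZIN1, of the same list, fell by 0.46 in that period, and another AZIN1 probe-set gave -1.46. GAMT, the last enzyme of creatine synthesis, rose in each period, by 0.39, 0.59 and 0.37. Over the list, 3 of 11 genes tested were higher and 5 lower in period I, 3 of 12 higher and 4 lower in period II, and 2 of 9 higher and 5 lower in period III.

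Amino acid breakdown, which feeds the aminotransferases and the cycle, was mostly higher over the whole span. Between 94 dpc and 188 dpn, 19 of 20 genes gained signal and 1, KYNU, lost signal, with a median change of 1.65. Of all 12921 probe-sets tested, 28.6% were called higher and 55.0% lower. Among the 19, AMT had 0.29 but another of its probe-sets gave -0.56, also called. AHCY had 0.61, and another of its probe-sets gave -0.38, which did not pass. The call of KYNU was lost with array medians subtracted. By period, 13 of 19 tested were higher and none lower in period I, 10 of 20 higher and 3 lower in period II, and 15 of 20 higher and 2 lower in period III. HPD, which follows TAT in tyrosine breakdown, ran from 12.56 to 14.53 on the log2 scale at 1 dpn against 0.93 to 7.90 at 94 dpc, where its mean was below the array medians. With values below the array median raised to it, the change was 6.16. HPD was 9.31-fold lower at 28 dpn than at 1 dpn. SDS (serine dehydratase) was higher at 188 dpn than at 28 dpn by 2.89 (limma, q = 1.33e-05), or by 2.38 with values below the array median raised to it, the weaners being scattered from 1.87 to 10.34. GNMT, which disposes of excess methyl groups, rose by 4.16, 1.52 and 1.02 in periods I, II and III, and SHMT1, a folate enzyme of serine and glycine, rose by 1.54 and 1.14 in periods II and III. Another SHMT1 probe-set gave -0.31 in period II and 0.93 in period III, so the direction in period II depends on the probe-set.

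Pyruvate formed by GPT can enter gluconeogenesis. In that list 9 of 10 genes tested were higher and none lower in period I, 4 of 10 higher and 3 lower in period II, and 4 of 8 higher and 2 lower in period III. PC (pyruvate carboxylase) was 2.88-fold higher at 1 dpn than at 94 dpc. PCK1, the cytosolic phosphoenolpyruvate carboxykinase, rose by 0.88, 0.77 and 0.60 over the 3 periods. SLC37A4, which carries glucose 6-phosphate to its phosphatase, was 2.39-fold higher at 188 dpn than at 28 dpn, without overlap.

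**Figure D3:**
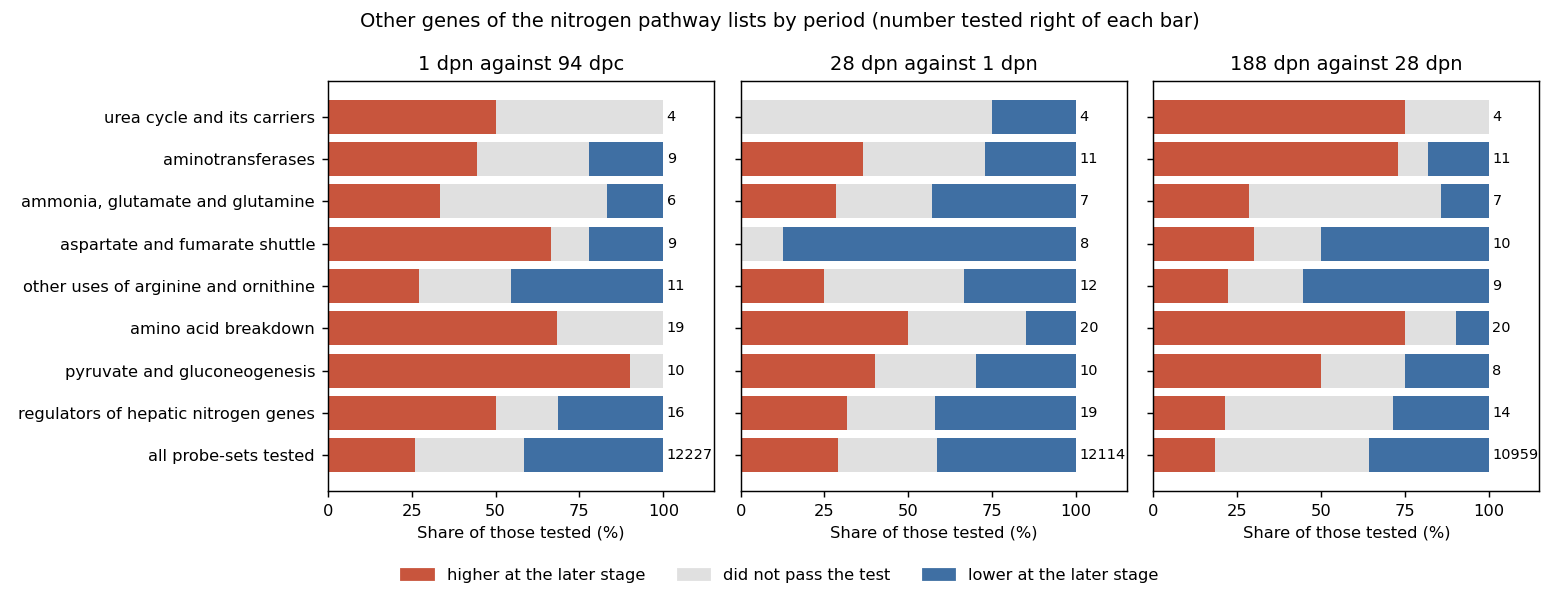
Share of the genes tested in each nitrogen list, ARG1, ASL and GPT left out, and of all probe-sets tested that were called higher (red) or lower (blue) at the later stage or did not pass (grey), with the number tested at the right. Red outweighs blue for amino acid breakdown in each of the 3 panels and for aminotransferases and urea cycle genes most clearly at 188 dpn against 28 dpn, while blue outweighs red among all probe-sets.

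Among regulators of these genes, 8 of 16 tested were higher and 5 lower in period I, 6 of 19 higher and 8 lower in period II, close to the shares of all probe-sets (29.0% and 41.4%), and 3 of 14 higher and 4 lower in period III. CEBPB, a C/EBP factor that binds promoters of urea cycle genes in rodents, rose by 0.48 in period I, a call that was lost after quantile normalization, and by 0.76 in period III, and its 0.06 in period II did not pass (limma, q = 0.128). CEBPA, its relative, rose by 0.58 in period I and had values of 0.29 and -0.23 afterwards that did not pass. KLF15, which controls amino acid breakdown in mouse liver, rose by 0.44, 0.66 and 1.29, without overlap in period III. HNF4A was 1.65-fold higher at 28 dpn than at 1 dpn, though another HNF4A probe-set gave -0.13 and did not pass. NR3C1, the glucocorticoid receptor, fell by 0.38 in period I and by 0.52 in period II, calls that were both lost with quantile normalization and with array medians subtracted. In period III its value of -0.09 did not pass. Another NR3C1 probe-set gave -0.21 and -0.17 in periods I and II, which did not pass, and -1.04 in period III, which did. The timing of the fall thus depends on the probe-set. PPARGC1A, a coactivator of fasting genes, fell by 1.33 in period II.

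Across all 61 arrays, the genes whose signal ran most like that of a member were found among 5503 genes. For ASL these were PCBD2, GCDH, ASS1, NAXE and ALDH1L1, with Pearson r from 0.93 to 0.94. For GPT they were SEPHS2, DHRS7, LOC100524254, OGDHL and CYP2A19, with r from 0.82 to 0.84, and for ARG1 they were AHCY, CTH, SLC37A4, GOT1 and PLA2G12A, with r from 0.63 to 0.71. These coefficients hold the stage differences themselves and the scaling that genes of one array share. ARG1 and ASL had r = 0.62 with each other, ASL and GPT 0.69, and ARG1 and GPT 0.46.

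With each stage's mean subtracted, the stage differences were removed and the order changed. What remained was the variation among the arrays of one stage. It still holds the scaling and RNA quality that genes of one array share, whose part was not tested. CPS1 then ran most like ARG1 of the 5503 genes (r = 0.72), and ASS1 most like ASL (r = 0.72). Genes outside the urea cycle came close: RPL7L1 (0.71) and TMEM170A (0.69) for ARG1, and ALDH1L1 (0.67) and SORD (0.64) for ASL. CPS1 and ARG1 had r = 0.40 among fetuses, 0.82 among newborns, 0.81 among weaners and 0.68 among young adults, while ASS1 and ASL had 0.61, 0.79, 0.75 and 0.76 in the same order. CPS1, which was not called in any period on the deposited scale, thus varied with ARG1 among the arrays of a stage. No gene came near this for GPT, whose highest r was 0.44 with EPHX2, and the median over all genes was -0.01 for ARG1, -0.03 for ASL and -0.01 for GPT. This measure was chosen after the values had been seen, and the coefficients are a description. CPS1 ranked second for ARG1 without the 9 arrays of outlying RNA integrity, and ASS1 second for ASL after quantile normalization.

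The members were also correlated with each other within each stage, 12 relations in all. ARG1 and ASL had r = 0.70 at 1 dpn (rho = 0.64, n = 14, permutation p = 0.00668, Benjamini-Hochberg p = 0.0401) and r = 0.68 at 28 dpn (rho = 0.71, n = 15, permutation p = 0.00524, Benjamini-Hochberg p = 0.0401), against r = 0.19 at 94 dpc and 0.30 at 188 dpn (Benjamini-Hochberg p = 0.599 and 0.409). Whether the stages differed in r was not tested. Without the 2 animals farthest from the ARG1 median, r was 0.54 at 1 dpn and 0.52 at 28 dpn (n = 12 and 13, permutation p = 0.07 and 0.0654), so the calls were lost while r stayed positive. Both calls were also lost with quantile normalization and without the 9 arrays. The 8 relations with GPT had r from -0.27 to 0.52, the lowest Benjamini-Hochberg p being 0.191. At 28 dpn the excess of 3' over 5' signal for the beta-actin transcript, which grows as RNA degrades, correlated with ARG1 (r = 0.86), ASL (r = 0.68) and GPT (r = 0.65). In the same order r was lower for the GAPDH transcript (0.42, 0.29 and 0.42) and for EF1A (0.225, 0.20 and 0.34). At 1 dpn the array median correlated with ARG1 (r = -0.58) and ASL (r = -0.43). The part of these array measures in the relation of ARG1 and ASL was not tested.

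**Figure D4:**
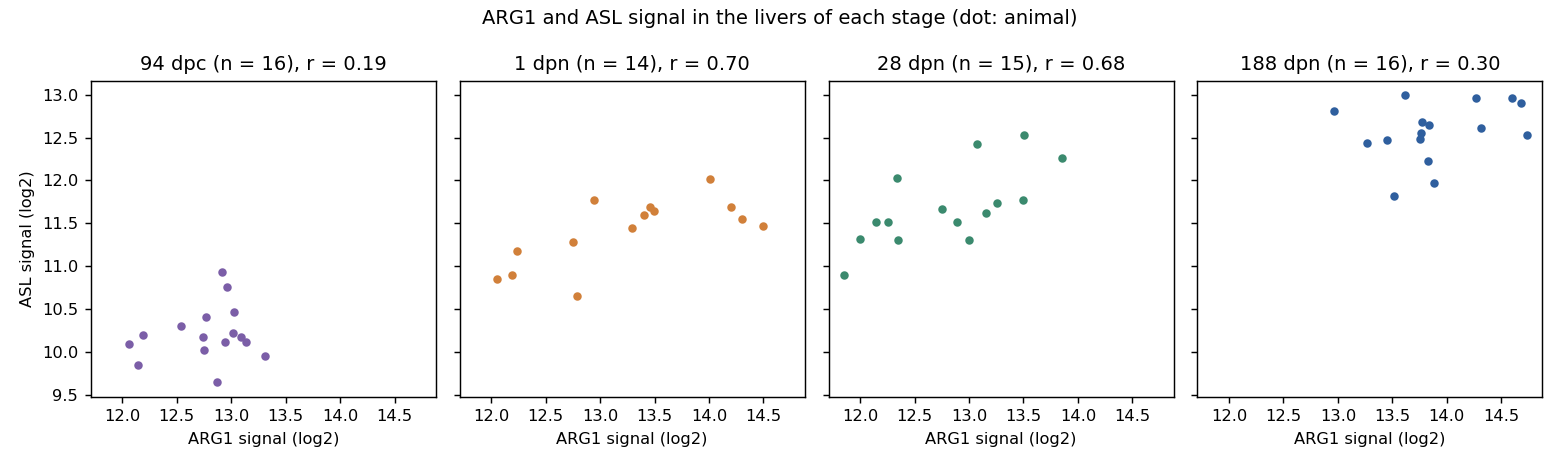
Log2 signal of ASL (vertical axis) against ARG1 (horizontal axis) within each stage, each dot being 1 animal and r the Pearson coefficient. The dots form a rising band at 1 dpn and 28 dpn and a loose cloud at 94 dpc and 188 dpn.

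Markers of other cell types and RNA measures differed between stages. The marker counts below stand against the shares of all probe-sets tested. These were 26.1% called higher and 41.6% lower in period I, 29.0% and 41.4% in period II, and 18.3% and 35.7% in period III. Erythroid markers, part of fetal blood formation in the liver, fell in 8 of 10 genes tested in period I. Their summed signal ran from 4140 to 7741 at 1 dpn against 6790 to 45532 at 94 dpc. Of the 11 that could be read, 4 were below the array median at 1 dpn and 1 at 94 dpc. The brightness filter thus favoured a fall for some of them. Proliferation markers fell in 10 of 10 in period III, their sum running from 864 to 1462 at 188 dpn against 1753 to 10106 at 28 dpn. Of the 11 that could be read, 8 were below the array median at 188 dpn and 1 at 28 dpn. Most of those tested thus passed the brightness filter through the stage where they were high, which favoured a fall. T and NK cell markers rose in 6 of 6 in period II. Their sum ran from 998 to 5346 at 28 dpn against 362 to 745 at 1 dpn, where all 10 were below the array median. The 6 thus passed the brightness filter only through 28 dpn, where they were high, so a rise was nearly fixed in advance. Of the markers not tested, CD3E, CD3G and CD4 had changes of 0.70, 1.13 and 0.30, and PRF1 had -0.71. Macrophage markers rose in 7 of 10 and fell in 1 in period II, with sums of 42730 to 67637 at 28 dpn against 18615 to 36940 at 1 dpn, and fell in 8 of 10 in period III, with 29560 to 47042 at 188 dpn against 42730 to 67637 at 28 dpn. Of 7 periportal hepatocyte markers 3 could be read, PCK1, SDS and CDH1, the first 2 of which are also in the lists above. Both tested in period III, PCK1 and SDS, rose, and the sum ran from 29906 to 52896 at 188 dpn against 19985 to 40820 at 28 dpn. Of 10 pericentral markers 5 could be read, GLUL and OAT among them, and all 5 rose in period II by their brightest probe-sets. Their sum ran from 53273 to 80720 at 28 dpn against 23438 to 61400 at 1 dpn. Another GLUL probe-set gave -1.46 in that period, and the call of OAT was lost in some alternatives, as given above. Neutrophil and granule markers fell in 3 of 7 in period I, near the share of all probe-sets. In period II they fell in 6 of 6, with sums of 486 to 2041 at 28 dpn against 2340 to 23731 at 1 dpn. Of the 7, 5 were below the array median at 28 dpn and 1 at 1 dpn, so here too the filter favoured a fall. In period III none of 5 hepatocyte genes tested was called by limma (lowest unadjusted P 0.49), with a sum of 437462 to 782100 at 188 dpn against 433847 to 807044 at 28 dpn. In period I, 7 of 11 hepatocyte genes were higher and 1 was lower, and in period II none of 8 was higher and 7 were lower. The beta-actin 3'/5' difference averaged 1.78 at 1 dpn against 2.27 at 94 dpc, 3.94 at 28 dpn against 1.78 at 1 dpn, and 4.03 at 188 dpn against 3.94 at 28 dpn. In order of stage, that of GAPDH averaged 1.05, 0.39, 0.79 and 0.64, and that of EF1A -0.02, -0.14, 0.39 and 0.56. The controls thus did not share one course. The part of these shifts in the changes of ARG1, ASL, GPT and their pathway was not tested.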

How the data were processed

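Signal intensity per probe-set on 61 arrays was deposited by the authors on a linear scale, scaled per array to a common trimmed mean, and GCOS 1.1.1 is named in the submitters' processing notes. The GC-RMA values and MAS5 calls of the study's methods were not used here, and the aligner and genome build are not given in the sources used here. Of 24123 probe-sets, 124 were controls and 10069 had 1 gene symbol in the platform annotation. Values were log2 transformed. limma 3.58.1 (R 4.3.3) compared 2 stages at a time, with stage as the only term, because sex, mother and weight are not in the labels. Storey's q was computed over all probe-sets tested. A gene was read from its brightest probe-set. The genes named were ARG1, ASL and GPT, up to 5 called genes per list and period by size of change, a set of key enzymes and regulators, and the 5 genes most like each member. The members and the lists were chosen with earlier results of these data known. Correlations used 100000 permutations (two-sided, scipy). Scripts were tested on simulated data. The number of arrays limits the precision. Alternatives covered scaling, filters, adjustment, left-out arrays and probe-set choice.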

Additional observations from a re-analysis of the deposited data

How the results depend on the processing

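No paired analysis was possible, because each animal was sampled at a single stage and the labels do not identify litters. The scaling of the arrays moved the results most. With array medians subtracted, the change from 94 to 188 dpn was 1.76 for ARG1, 3.00 for ASL and 2.51 for GPT, and with quantile normalization it was 0.66 for ARG1 and 2.30 for GPT. The other 79 of 84 recomputed changes of the 3 genes moved by less than the SD within stages. Of the pathway genes together, 9 instead of 15 were lower in period I with array medians subtracted, 50 instead of 29 higher and 18 instead of 32 lower in period II, and 10 instead of 27 lower between 188 dpn and 94 dpc. Under the same scaling 2 urea cycle genes instead of 0 were higher in period II, and 1 aminotransferase instead of 2 was lower over the whole span. With a gene's probe-sets averaged, 1 aminotransferase instead of 2 was lower in periods I and III.

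Signs changed for 13 of 1039 recomputed changes of single genes, 22 more crossed the threshold, and the cause was not tested. With array medians subtracted, the period II value was 0.14 for OTC, 0.29 for GOT1 and 0.11 for FH, and the period III value of CPS1 was 0.15. With quantile normalization, CEBPB had -0.14 in period II and CPS1 -0.0029 over the whole span. Without the arrays of outlying 3'/5' difference, ASS1 had -0.0056 in period II and CPS1 0.023 in period III. Without the least correlated array of each stage these were -0.018 and 0.040, and CPS1 had 0.013 with array weights. With probe-sets averaged, TAT had 0.010 in period I and GLUL -0.31 in period II.

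ARG1 and ASL had r = 0.67 at 1 dpn and 0.62 at 28 dpn after quantile normalization (Benjamini-Hochberg permutation p = 0.0789 for both), and 0.65 and 0.60 without the arrays of outlying 3'/5' difference (p = 0.106 for both). ARG1 and GPT at 1 dpn turned to 0.10, 0.059 and 0.14 with quantile normalization, array medians subtracted and those arrays left out. The signal has no detection call here, so values near the array median, such as GPT before weaning, are the least certain.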
